A study of Homo sapiens with 4 samples.

Results

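MHC class I antigen presentation was described through 9 genes: the class I heavy chains HLA-B, HLA-C, HLA-E and HLA-F, the light chain B2M, the peptide transporter subunits TAP1 and TAP2, the loading factor TAPBP and the transcriptional activator NLRC5. The members were found by symbol in the platform's probe annotation, and probe sets that carry several symbols were kept. This gave 17 probe sets of 33252 on the array and covered 8 of the 9 genes. HLA-E was not analysed here. The 17 fell into 7 symbols or symbol pairs of 19429 symbols or symbol groups in all, because HLA-B shared 3 probe sets with HLA-C and another 3 with HLA-F. A value for such a pair cannot be assigned to either gene.

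RNA came from 2 established human lines, U266, a multiple myeloma line, and K562, a chronic myeloid leukaemia line, each grown in RPMI-1640 with serum. The U266 arrays hold cells kept for 2 h in DMSO vehicle or in 15 µM atovaquone. The K562 arrays hold cells kept for 5 h in DMSO or in 20 µM of the drug. Atovaquone is an antimalarial drug that inhibits mitochondrial complex III. Each of these 4 groups had 1 array, so no replicate error exists, no test was run, and every ratio describes a pair of arrays. Dose and time differ between the lines, so the atovaquone ratios of U266 and K562 are set side by side and not compared. In RNA from a whole culture, fewer cells that express a gene and less RNA per cell cannot be told apart.

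Class I molecules carry short peptides from proteins made inside the cell to its surface, where CD8 T cells read them and natural killer cells sense their absence. Peptides cut by the proteasome cross into the endoplasmic reticulum through the TAP1 and TAP2 transporter. Tapasin, encoded by TAPBP, holds the empty heavy chain and B2M beside that transporter until a peptide binds. NLRC5 assembles with RFX and NF-Y factors on a shared promoter module of class I, B2M and TAP1 genes, and interferon raises the whole pathway. K562 is widely used as a target of natural killer cells because it shows little class I on its surface.

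The promoters are shown first because the members differed together between the lines. The sequences are the 250 bases upstream of the RefSeq start in build GRCh38.p14, read from RefSeq and not from either line, 5′ to 3′ on the gene's own strand. HLA-C lies on the minus strand at chr6:31272093-31272342, HLA-B on the minus strand at chr6:31357180-31357429 and HLA-F on the plus strand at chr6:29723184-29723433. B2M lies on the plus strand at chr15:44711267-44711516 and TAP1 on the minus strand at chr6:32853705-32853954. Capitals mark matches to any of the 5 motifs named after them.
HLA-C: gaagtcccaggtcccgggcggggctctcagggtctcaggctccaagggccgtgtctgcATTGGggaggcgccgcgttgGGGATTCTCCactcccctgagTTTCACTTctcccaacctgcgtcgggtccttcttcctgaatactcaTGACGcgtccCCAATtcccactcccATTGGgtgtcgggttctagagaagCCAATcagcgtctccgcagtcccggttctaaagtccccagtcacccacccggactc
HLA-B: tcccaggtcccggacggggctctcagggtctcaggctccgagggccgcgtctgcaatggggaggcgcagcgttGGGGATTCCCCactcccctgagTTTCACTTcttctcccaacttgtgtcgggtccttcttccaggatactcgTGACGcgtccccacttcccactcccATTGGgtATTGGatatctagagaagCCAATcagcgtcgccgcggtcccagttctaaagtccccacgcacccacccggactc
HLA-F: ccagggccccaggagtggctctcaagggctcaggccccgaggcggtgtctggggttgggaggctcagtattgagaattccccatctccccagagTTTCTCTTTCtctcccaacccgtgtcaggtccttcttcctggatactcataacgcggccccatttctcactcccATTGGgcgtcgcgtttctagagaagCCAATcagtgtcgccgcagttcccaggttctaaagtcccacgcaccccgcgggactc
B2M: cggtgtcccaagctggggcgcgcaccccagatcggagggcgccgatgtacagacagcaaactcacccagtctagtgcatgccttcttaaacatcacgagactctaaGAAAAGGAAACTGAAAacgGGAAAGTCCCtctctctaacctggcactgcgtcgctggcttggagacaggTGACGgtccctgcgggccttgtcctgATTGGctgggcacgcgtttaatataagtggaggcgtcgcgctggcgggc
TAP1: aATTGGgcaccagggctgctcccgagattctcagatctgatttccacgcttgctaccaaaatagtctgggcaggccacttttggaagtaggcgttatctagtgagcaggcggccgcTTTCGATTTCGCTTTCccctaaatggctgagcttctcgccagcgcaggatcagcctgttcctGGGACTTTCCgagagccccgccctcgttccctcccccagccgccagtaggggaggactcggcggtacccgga

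The motifs were searched on both strands as plain letters, and they were chosen with these promoters in view. They were a kB site (GGG, any pair of bases, T, any pair of bases, CC), an interferon response core (TTTCNNTT), a longer interferon response element (the core followed by TC), a Y box (ATTGG) bound by NF-Y, and an X2 half-site (TGACG). Windows were found for 7 members, the 5 above with TAP2 and TAPBP. The interferon core was present in 7 of 7 and in 20.3% of 34788 distinct RefSeq windows of the same length. The longer element was present in 5 of 7, all but HLA-B and HLA-C, against 3.02% of windows. The kB site and the Y box were each present in 5 of 7, against 19.6% and 32.0%, and the X2 half-site in 4 of 7, against 21.2%. The heavy chain promoters were alike over the whole window, with 89.0% identical aligned columns between HLA-B and HLA-C, 79.8% between HLA-B and HLA-F, and 78.2% between HLA-C and HLA-F. In HLA-C, HLA-B and HLA-F the interferon core began 151, 155 and 156 bases upstream of the start. The Y box match nearest the start, on the reverse strand, began 56, 56 and 57 bases upstream. In the same order of genes, a forward-strand match began 80, 81 and 82 bases upstream. TAP1 has 2 windows and was counted by the one shown, while the other held none of the 5 motifs. PSMB8, PSMB9, PSMB10, PSME1 and PSME2, proteasome genes described below, were searched in the same way. Of these, PSMB10 and PSME2 alone held the interferon core or the longer element within their windows. PSMB9 and TAP1 are read in opposite directions, away from each other, from RefSeq starts 488 bases apart. The interferon matches of TAP1, 134 to 119 bases upstream of its start, therefore lie upstream of PSMB9 too. They fall outside the window searched for PSMB9. A match describes letters in the reference and says nothing about binding in these cells.

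**Figure D1:**
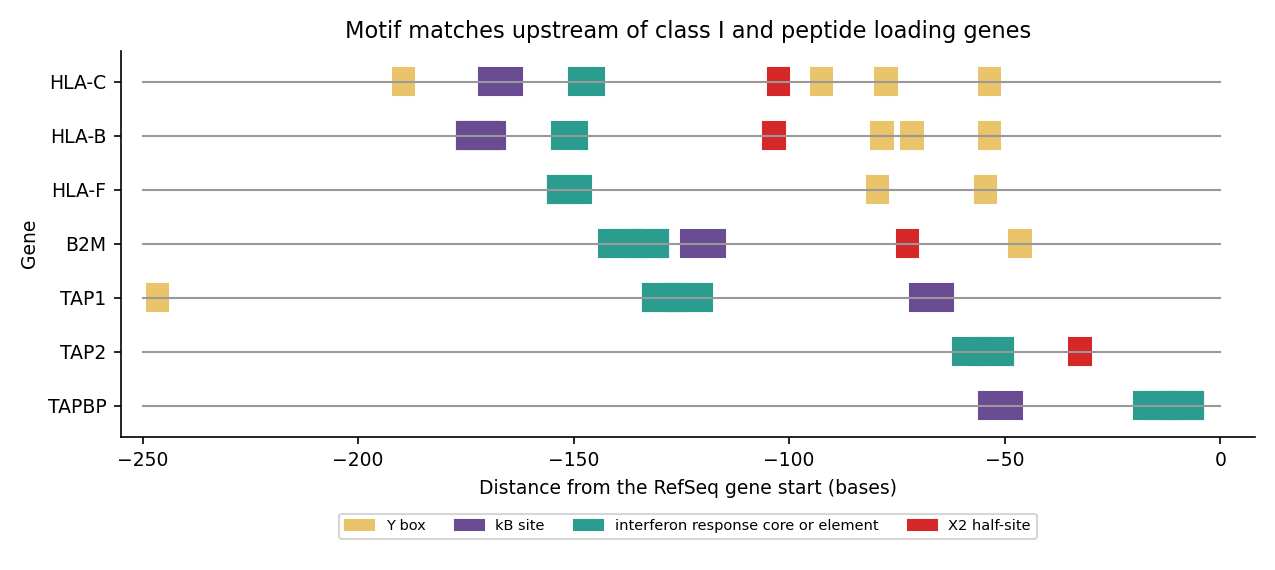
Motif matches in the 250 bases upstream of 7 genes, with distance from the RefSeq start in bases on the x axis, 1 line per gene and coloured boxes for matches on either strand. The heavy chain genes HLA-C, HLA-B and HLA-F hold an interferon core that begins 151 to 156 bases upstream, and HLA-C and HLA-B also hold a kB site further out.

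Across the 4 arrays, every member was brighter in U266 than in K562, by amounts that ranged widely, and within a line the vehicle and atovaquone arrays lay close together. Values are the authors' deposited intensities, and levels of different genes are not compared because probes differ in brightness. The floor is each array's 40th percentile over annotated probe sets, 331 and 324 on the U266 vehicle and atovaquone arrays and 305 and 306 on the K562 ones. A value under the floor is treated as not measured, and a ratio against it is only a bound. Between the vehicle arrays, 49.6% of all symbols with a ratio were higher in U266, so that direction alone is common. How many symbols separate the lines on all 4 arrays was not counted.

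The 3 probe sets shared by HLA-C and HLA-B, the classical heavy chains, had intensities of 8399.6, 8307 and 8457 on the U266 vehicle array and 8607, 8549 and 8726 with atovaquone. In K562 they had 683, 691 and 605 with vehicle and 791, 793 and 739 with atovaquone. The lines did not overlap on any of these probe sets, but how common that is among all symbols was not counted. The 3 shared by HLA-F, a non-classical heavy chain, and HLA-B had 2866, 3752 and 3668 in U266 with vehicle and 3039, 4062 and 3963 with atovaquone. In K562 the same probe sets had 283, 368 and 357 with vehicle and 348, 425 and 412 with atovaquone. These lay close to the K562 floor, and the dimmest was under it on the vehicle array.

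B2M, the light chain that every class I heavy chain needs, had 8960.25 and 8955 in U266 with vehicle and atovaquone, and 2207 and 2391 in K562. It was therefore well above the floor in both lines. TAP1 had 2418 and 2178 in U266 and 432 and 404 in K562. Its 3 probe sets held identical values on every array and count as 1 measurement.

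The 3 probe sets of TAP2, the other transporter subunit, had 1059.7, 1083 and 1109 in U266 with vehicle and 968, 988 and 1017 with atovaquone. In K562 they had 750.1, 679 and 749 with vehicle and 711, 631 and 712 with atovaquone. TAP2 was the member whose lines lay closest. TAPBP had 3262, 3706 and 4278 in U266 with vehicle and 3371, 3835 and 4524 with atovaquone, and 1464, 1608 and 1806 in K562 with vehicle and 1510, 1623 and 1861 with atovaquone. NLRC5 had 768 and 762 in U266 and 239 and 249.95 in K562, which is under the floor on both K562 arrays.

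**Figure D2:**
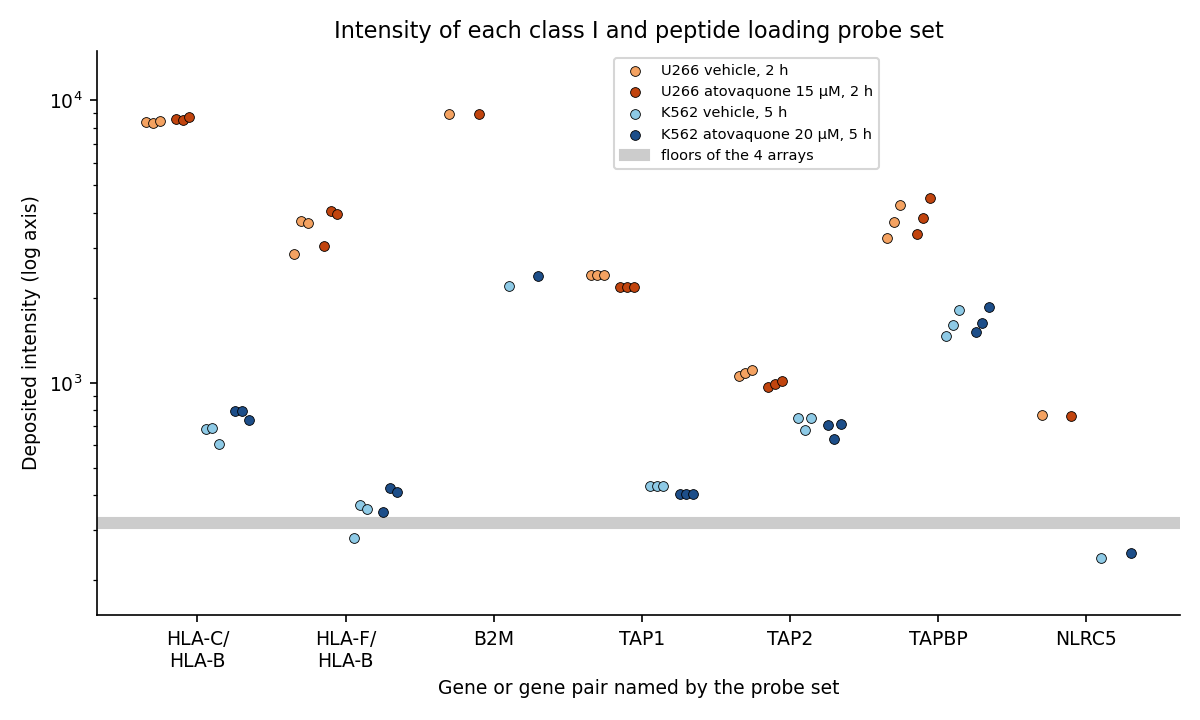
Deposited intensity on a log axis of the 17 probe sets, grouped by the gene or gene pair they name, with 1 point per probe set and array, coloured by array, and a grey band from the lowest to the highest floor of the arrays (305 to 331). Every U266 point lies above every K562 point of the same gene, a separation that was not counted over all symbols. NLRC5 and 1 probe set of HLA-F/HLA-B fall under the band in K562 vehicle.

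The vehicle arrays give the baseline of each line. All 7 members stood 1.5-fold or more above K562 in U266, 6 of the 7 stood 2-fold or more above it, and 0 stood below it by either measure. Over all 13326 symbols measured on at least 1 of these arrays, 21.1% were higher in U266 by 1.5-fold or more and 11.2% by 2-fold or more, while 17.6% and 8.81% were lower. The members' median log2 difference was at least 2.05, against −0.0053 over all symbols with a ratio. The lines also differ in vehicle time, in culture and in the array itself, and these cannot be told apart.

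The heavy chains differed most. HLA-C/HLA-B was 12.5-fold higher in U266 on its brightest probe set, a log2 difference of 3.65, and 12.2-fold and 14.2-fold higher on the other two. It ranked 37th at best of 11687 symbols with a ratio or a lower bound, since 1597 of these are lower bounds and may lie higher. HLA-F/HLA-B was 10.4-fold higher on both probe sets that were measured in K562 and at least 9.55-fold on the third, and ranked 58th at best. The spread between probe sets of 1 gene pair, at most 0.22 on the log2 scale, was small beside the difference between the lines. These probe sets read the same RNA, so their spread covers neither the spread between arrays nor that between cultures.

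TAP1 was 5.69-fold higher in U266, a log2 difference of 2.51, and B2M 4.13-fold higher, a log2 difference of 2.05. Of 10090 symbols with a ratio, 0.694% were further toward U266 than TAP1 and 1.37% further than B2M. TAPBP was 2.41-fold higher on its brightest probe set and 2.27-fold and 2.35-fold on the others. The regulator NLRC5 was at least 2.56-fold higher, a bound that rests on its place under the K562 floor. A floor at the 20th percentile gave a ratio of 3.19-fold, and one at the 60th a bound of at least 1.22-fold.

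TAP2 stood at 1.51-fold on its brightest probe set, and 1.44-fold and 1.62-fold on the others. In both lines TAP2 was thus measured well above the floor, while TAP1, whose product pairs with that of TAP2, differed by 5.69-fold. TAP2 passed 1.5-fold only narrowly, and 33.4% of all symbols with a ratio were at least as far from 0.

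**Figure D3:**
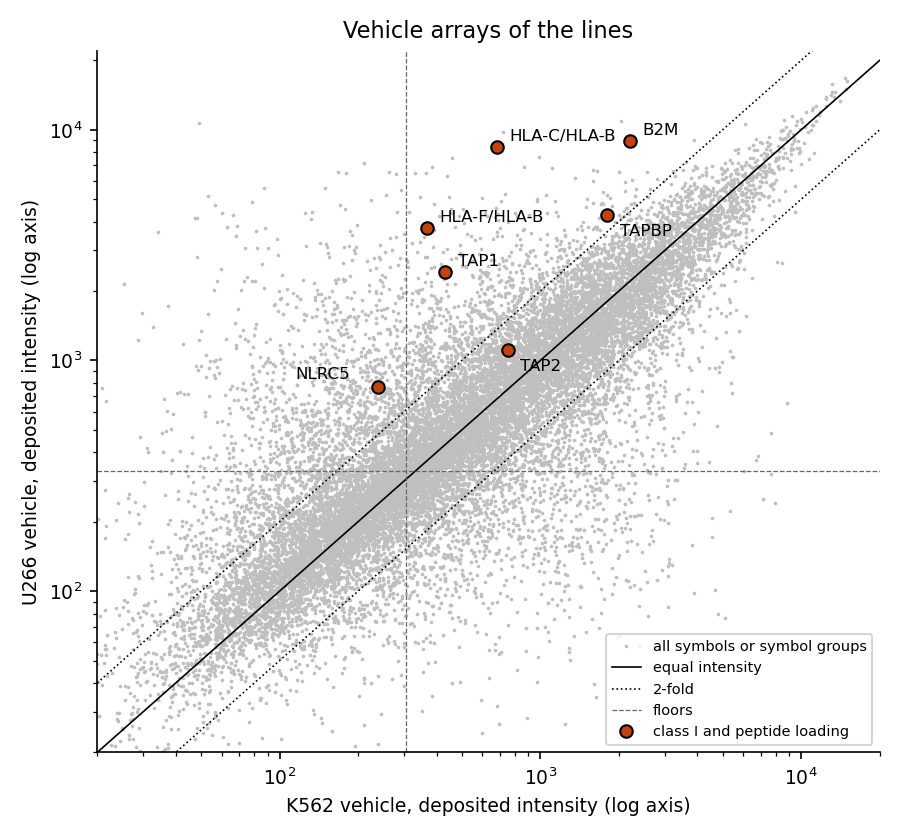
Deposited intensity on the K562 vehicle array (x, log axis) and the U266 vehicle array (y, log axis), with 1 grey point per symbol or symbol group, larger points for the 7 members, and lines for equal intensity, 2-fold and the floors (symbols dimmer than 20 lie outside the axes). The HLA pairs sit 12.5-fold and 10.4-fold from equality after centring, and TAP2 sits at 1.51-fold, inside the 2-fold lines.

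Most marker genes of each line were above the floor in the line they mark. Of 12 plasma cell markers, 11 were at or above the floor on both U266 arrays and 6 to 7 on the K562 arrays, with summed intensities of 44070 to 46059 and 5549 to 6280. CD38 went the other way, with 396 in U266 and 668 in K562 on the vehicle arrays, and CD27 was under the floor on all 4. All 10 measured erythroid and megakaryocytic markers were above it in K562 and 4 in U266. Of 23 markers of T, natural killer, myeloid, fibroblast and epithelial cells, 5 were above the floor in U266 and 10 in K562, with summed intensities of 5755 to 5820 and 11048 to 11602. The natural killer markers NKG7, KLRD1 and GNLY were under it on all 4 arrays. Of the T cell markers, CD3G, CD2 and TRAT1 were under it on all 4, CD3E and CD8A above it on all 4, at 375 to 475 and 455 to 530.4, and CD3D above it in K562 alone, at 476 and 446. The myeloid marker LYZ had 138 and 114 in U266 and 3113 and 3524 in K562. CD14 was above the floor in K562 alone, at 483 and 475, and FCGR3A, CD1C and CSF1R were under it on all 4. The epithelial marker EPCAM had 63.5 and 92.5 in U266 and 1975 and 1992 in K562. KRT14 had 890 and 972 in U266 and 949 and 959 in K562. KRT5 had 431 and 445 in U266 and 315 and 343 in K562, and CDH1 was under the floor on all 4. Of the fibroblast markers, COL1A1 was above it on all 4, COL3A1 in K562 alone, and COL1A2, DCN and LUM on none. The part of other cells in the class I difference was not tested.

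Other genes of the pathway were taken from 7 lists, which include class II genes although these are not part of class I presentation. Of the 70 measured symbols, 27 passed 1.5-fold toward U266 and 3 toward K562, beside 21.1% and 17.6% of all symbols. The class II list alone gave 9 of the 27 from 10 of the 70, and some of its symbols share genes. The immunoproteasome is the proteasome variant that interferon induces for class I peptides. Of 6 genes of the immunoproteasome and its PA28 activator, 5 passed 1.5-fold toward U266, and the list's median on the log2 scale was 1.16 or more. PSMB9, a catalytic immunoproteasome subunit, was 4.48-fold higher, with intensities of 1769 and 402. PSMB9 is the immediate neighbour of TAP1 on chromosome 6, in the opposite direction, with RefSeq starts 488 bases apart, and PSMB8 and TAP2 follow on the other side of TAP1. PSMB8 was at least 1.93-fold higher, PSMB10 1.77-fold, and the PA28 subunits PSME1 and PSME2 3.97-fold and 2.61-fold. The assembly factor POMP alone lay on the other side of 0 in this list, at −0.42 on the log2 scale. The constitutive catalytic subunits that the immunoproteasome ones replace, PSMB5, PSMB6 and PSMB7, had log2 differences of −0.37, 0.05 and 0.11, and 0 of 3 passed 1.5-fold.

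In the endoplasmic reticulum, the peptide-trimming enzymes ERAP1 and ERAP2 stood higher in U266 by 2.01-fold and by at least 3.22-fold. They were the 2 of 14 measured genes for trimming and loading chaperones to pass 1.5-fold toward U266, and 0 passed it toward K562. Over all symbols the shares were 21.1% and 17.6%, so both counts are below their share. The translocon subunit SEC61A1, the aminopeptidase LAP3 and the peptidase TPP2 came next, with log2 differences of 0.56, 0.53 and 0.32. The general chaperones calreticulin (CALR) and calnexin (CANX) stood at 0.02 and 0.13. The median of that list was 0.19.

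Regulators of class I transcription were mixed, with 4 of 17 measured past 1.5-fold toward U266 and 1 toward K562, which is near the 21.1% of all symbols on the U266 side and below the 17.6% on the K562 side. IRF9, the DNA-binding part of the type I interferon complex, was at least 7.74-fold higher, with an intensity of 2323 against 186 in K562. IRF2, which binds interferon response elements, and RFX5, the RFX subunit of the class I and class II enhanceosome, were 2.79-fold and 2.81-fold higher. The NF-kB subunit RELB was 1.52-fold higher. RFXAP, a partner of RFX5, went the other way and was 2.04-fold lower in U266. IRF1, an activator of class I promoters, had 371 in U266 and 235 in K562, under the K562 floor. Of the polycomb repressor genes, EED stood at −0.56 on the log2 scale, SUZ12 at 0.43 and EZH2 at 0.03. EED passed 1.5-fold toward K562 under the 20th-percentile floor and without a floor. The NF-Y subunit NFYA stood at −0.51 and the RFX subunit RFXANK at −0.43.

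Of 9 genes for interferon receptors and their JAK-STAT relays, 4 passed 1.5-fold toward U266 and 1 toward K562, and the list's median was −0.07. The type I receptor chains IFNAR2 and IFNAR1 were 4.11-fold and 2.14-fold higher, the kinase TYK2 1.90-fold and the interferon gamma receptor chain IFNGR2 1.53-fold. The phosphatase PTPN2, which dampens JAK-STAT signals, was 1.85-fold lower. JAK2, SOCS1 and IFNGR1 stood at −0.50, −0.48 and −0.23 on the log2 scale. Class I-like molecules and ligands of natural killer receptors had 3 of 11 higher and 1 lower, beside 21.1% and 17.6% of all symbols. RAET1L, an NKG2D ligand, was 3.00-fold higher, MR1, which presents vitamin metabolites, 2.90-fold and MICB 1.73-fold, while PROCR was 1.65-fold lower. ULBP1 and ULBP2, other NKG2D ligands, had log2 differences of −0.38 and 0.14, and the antibody receptor FCGRT −0.18.

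Class II genes present peptides from outside the cell. Of 10 measured class II symbols, 9 passed 2-fold toward U266 and 0 toward K562, beside 11.2% and 8.81% of all symbols. Some of them share HLA-DQA1, HLA-DQB1 or HLA-DRB1, so they are not all separate genes. The list's median on the log2 scale was 2.64 or more. HLA-DPA1 was at least 18.3-fold higher and the pair HLA-DRA/HLA-DQA1 at least 14.2-fold. CD74, the invariant chain, shares its probe set with ROS1 and was at least 14.6-fold higher. The probe set shared by several HLA-DRB genes and HLA-DQB1 was 8.80-fold higher. HLA-DMA and HLA-DMB, which edit class II peptides, were 8.33-fold and 2.63-fold higher, and HLA-DPB1 4.70-fold. HLA-DQA1 and HLA-DRB1/HLA-DQB1 were higher by at least 3.31-fold and 3.26-fold. HLA-DOA was under the U266 floor, with a log2 difference of −0.06 or lower. CIITA, the class II activator, was just under the floor in U266, at 329, and at 214 in K562.

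**Figure D4:**
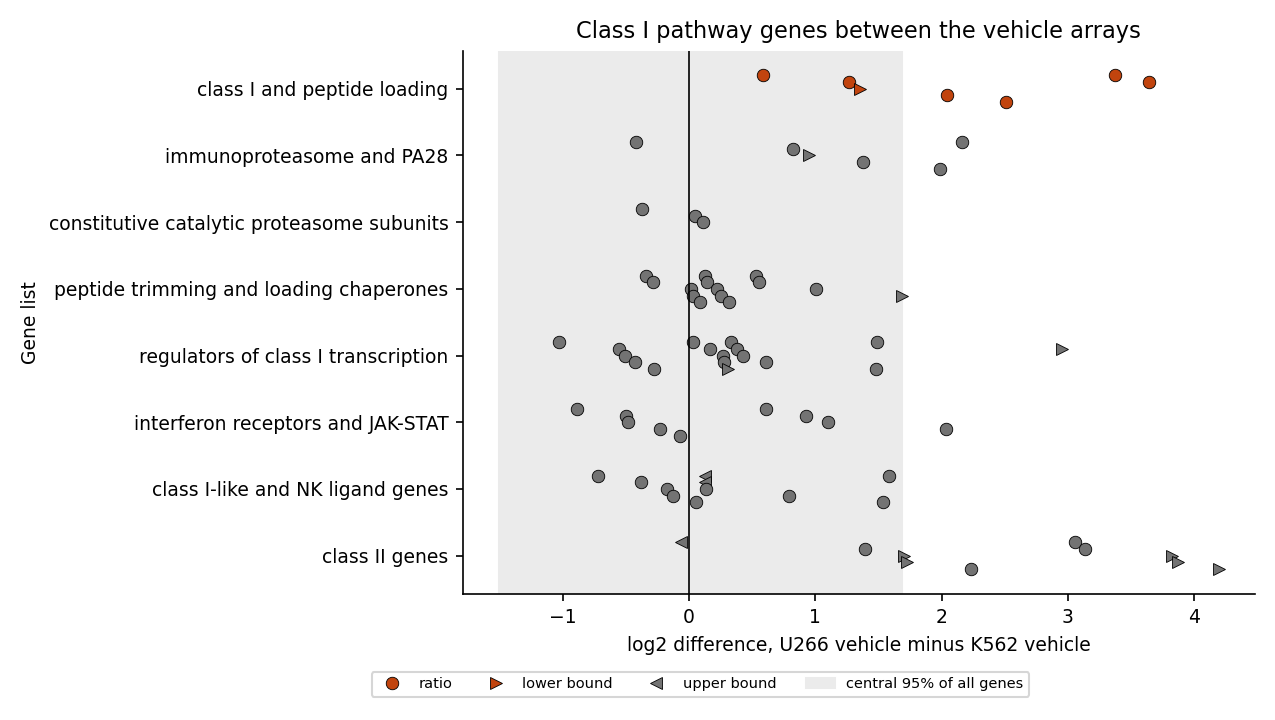
Log2 difference of U266 vehicle minus K562 vehicle for the 7 class I and peptide loading symbols and for 7 lists of other pathway genes, with circles for ratios, triangles for bounds and a grey band for the central 95% of all symbols with a ratio (−1.50 to 1.69). Class I, immunoproteasome and class II symbols lie mostly to the right of 0, and the constitutive proteasome subunits lie between −0.37 and 0.11.

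Atovaquone in U266 for 2 h left every member within 1.5-fold of vehicle. Of 7 members, 0 were higher and 0 lower by 1.5-fold or more, against 1.01% and 0.142% of 11962 symbols. Counts of 0 are near these shares and do not set the members apart from other symbols. At 2-fold these shares were 0.41% and 0.00836%. The median log2 ratio was 0.0088, against −0.00026 over all symbols. Transporter genes stood lowest, with log2 ratios of −0.14 for TAP1 and −0.11 for TAP2. The HLA-F/HLA-B pair stood highest at 0.12, followed by TAPBP at 0.09 and HLA-C/HLA-B at 0.04. B2M and NLRC5 stood at 0.0088 and −0.0018.

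These U266 ratios were alike among probe sets of 1 gene and lay inside the central 95% of all symbols. TAP2 ranged from −0.12 to −0.11 over its 3 probe sets, HLA-C/HLA-B from 0.04 to 0.05, HLA-F/HLA-B from 0.09 to 0.12, and TAPBP from 0.06 to 0.09. That central range ran from −0.28 to 0.34. Of all symbols with a ratio, 26.2% were at least as far from 0 as TAP1 and 32.0% at least as far as HLA-F/HLA-B. Among the 2282 symbols of the brightest of 5 equal groups, to which both belong, these shares were 13.8% and 18.7%. Agreement between probe sets covers the array only, since they read the same RNA, and the spread between cultures was not measured.

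Atovaquone in K562 for 5 h left every measured member within 1.5-fold of vehicle. Of 6 members measured, 0 were higher and 0 lower by 1.5-fold or more, against 1.53% and 0.698% of 12037 symbols. Here too, counts of 0 are near these shares and do not set the members apart. At 2-fold these shares were 0.316% and 0.125%. NLRC5 was under the floor on both arrays. The median log2 ratio was 0.08, against −0.0038 over all symbols. The HLA pairs stood highest, with 0.22 for HLA-C/HLA-B, 1.16-fold, and 0.21 for HLA-F/HLA-B, also 1.16-fold. Over their probe sets these ran from 0.21 to 0.29 and from at least 0.19 to 0.21. B2M stood at 0.12, TAPBP at 0.05, TAP2 at −0.07 and TAP1 at −0.09.

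All these K562 values lay inside the central 95% of all symbols, −0.42 to 0.48. Of all symbols with a ratio, 26.0% were at least as far from 0 as HLA-C/HLA-B and 51.0% at least as far as B2M, and within their own brightness groups the shares were 31.5% and 40.1%. Even after atovaquone, the brightest HLA-C/HLA-B probe set in K562, at 793, was far under the lowest in U266 vehicle, at 8307.

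**Figure D5:**
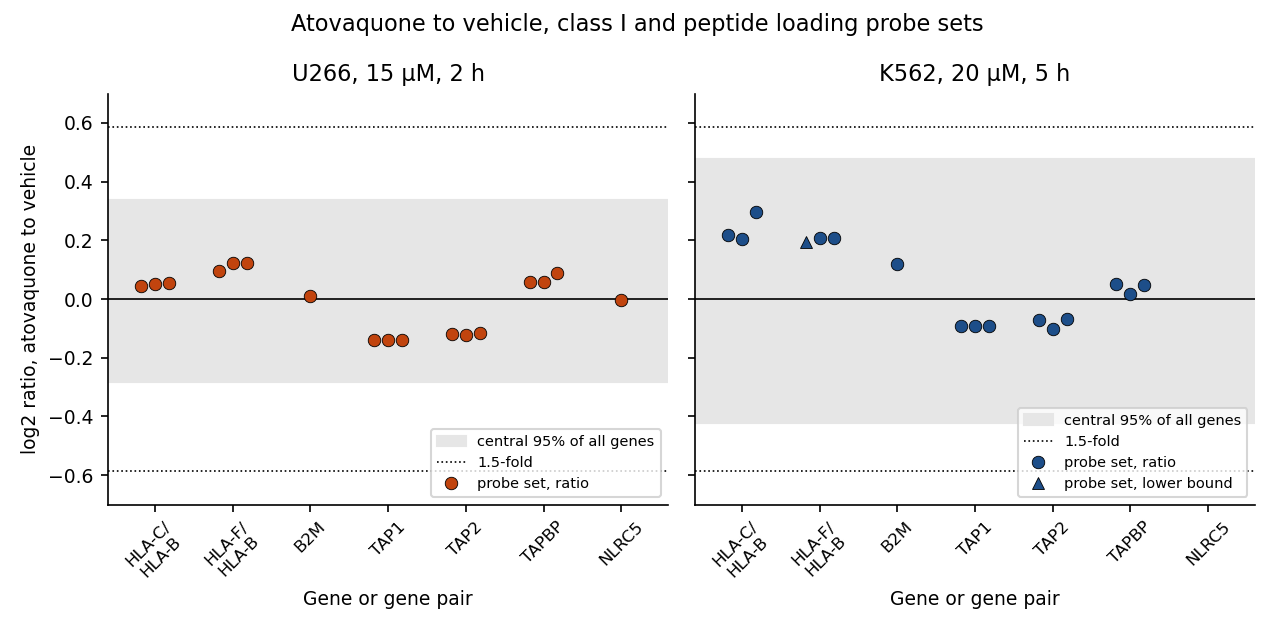
Log2 ratio of atovaquone to vehicle for each member probe set in U266 (15 µM, 2 h) and K562 (20 µM, 5 h), with circles for ratios, a triangle for a lower bound, a grey band for the central 95% of all symbols and dotted lines at 1.5-fold. Every point lies inside the band of its line, TAP1 and TAP2 lie under 0 and both HLA pairs above 0 in each line, and NLRC5 has no K562 point.

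Among other genes of the pathway, 0 of 68 measured symbols passed 1.5-fold in U266 in either direction with atovaquone, and in K562 1 of 61 was higher and 0 lower. These counts are near the shares over all symbols, 1.01% and 0.142% in U266 and 1.53% and 0.698% in K562. The one was the class II gene HLA-DMA, with intensities of 515 against 311, a ratio of 1.66-fold. Its vehicle value stood just above the floor, and its other probe sets, identical to each other, were under it there and gave at least 1.57-fold. The class I-like gene MR1 and the NKG2D ligand ULBP1 came next in K562, with log2 ratios of 0.58 each and intensities of 737 against 493 and 729 against 491. In U266 the same genes stood at −0.03 and −0.02, and HLA-DMA at −0.11, while RAET1L was furthest from 0 among the class I-like genes, at −0.27.

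Some genes of the interferon receptor list had log2 ratios above 0 in each line, without passing 1.5-fold. The receptor chain IFNGR1 stood at 0.34 in U266 and 0.36 in K562, the kinase JAK2 at 0.32 and 0.33, and PTPN2 at 0.27 and 0.39. Others lay below 0, among them IFNGR2 at −0.10 and −0.09, and JAK1 at −0.22 in K562. The list's medians were 0.09 and 0.17. Among regulators, the largest ratios in U266 were 0.29 for NFKB1, −0.23 for NFYB and 0.20 for RELB, and in K562 0.25 for RFX5, −0.24 for NFYA and 0.21 for RFXAP. IRF1 dropped under the U266 floor with atovaquone, from 371 to 247, so that its log2 ratio was −0.19 or lower.

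The immunoproteasome list had medians of −0.08 in U266 and −0.01 in K562. PSMB8 stood at 0.22, PSMB10 at −0.16 and PSMB9, the neighbour of TAP1, at −0.12 in U266. In K562 PSMB10 dropped under the floor, with a log2 ratio of −0.32 or lower, and PSME2 and PSME1 stood at 0.14 and 0.10. The constitutive subunit PSMB5 stood at 0.11 in U266 and −0.05 in K562. Trimming and loading genes were led by TAPBPL at −0.19 and the peptidase BLMH at 0.18 in U266, and by THOP1, a cytosolic peptidase that destroys peptides, at −0.23 in K562. Class II symbols in U266 had a median of 0.14, led by HLA-DRB1/HLA-DQB1 at 0.33 and HLA-DQA1 at 0.24, and 0 passed 1.5-fold. Of the 10 measured, 9 were above 0, with HLA-DQB1 among them only as a lower bound. Some of the 10 share genes, so they are not all separate. Of all symbols with a ratio, 49.9% were above 0, and 58.2% of the brightest group, to which not all of the 10 belong. Most class II symbols were under the floor in K562, where 5 of 12 were measured.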

How the data were processed

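RNA was extracted with Trizol and an RNeasy column and biotin-labelled for Affymetrix arrays, per the labels' protocols. The deposited values are the authors' processed intensity per probe set on a linear scale. For their software, background correction and normalisation, nothing is given in the sources used here. Ratios were taken on the log2 scale from the deposited intensities, after values under the floor were raised to it, with Python 3.11.15, numpy 2.4.6 and pandas 2.3.3.

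The log2 ratios were centred on the median of probe sets measured on both arrays, which removed −0.0096 in U266, −0.0048 in K562 and −0.025 between vehicle arrays. Of several probe sets for a symbol or symbol group, the brightest stood for it. A symbol was counted as at least 1.5-fold or 2-fold different by its ratio or its bound, over symbols measured on at least 1 array of a pair. Every member probe set was named, with pathway genes at least 1.5-fold different and otherwise up to 3 per list by size. CALR, CANX, EZH2, SUZ12, IRF1, CIITA, IFNGR2 and JAK1 fall outside this rule and were named for their roles after their values were seen. The steps were tested on simulated data. With 1 array per group the number of arrays limits precision, and no test was possible. Members and lists were chosen with earlier results of these data known. Promoters came from RefSeq in build GRCh38.p14 and were aligned end to end with Biopython 1.88. Figures were drawn with matplotlib 3.10.9.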

Additional observations from a re-analysis of the deposited data

How the results depend on the processing

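No paired analysis was possible because each group has 1 array and no test was run. The 7 alternatives included floors at the 20th and 60th percentiles, no floor, no centring and quantile normalisation. The others were the mean over probe sets and probe sets with 1 symbol only. Of 237 recomputed values, 227 moved by less than the spread between probe sets of 1 symbol or, for counts, by at most 1.5 times. That spread was 0.083 in U266, 0.099 in K562 and 0.31 between vehicle arrays on the log2 scale. Some values could not move that far. The centring removed less than this spread, and averaging cannot change B2M, NLRC5 or TAP1, with single or identical probe sets. The tally is therefore partly fixed by the choice of alternatives. A change of sign counted as a reversal only where the main value was at least 1.5-fold in size, and 0 were found. No atovaquone ratio of a member was that large, so none could be counted. Values near 0 did change sign. With atovaquone, the members' median went from 0.0088 to −0.00075 in U266 under the 60th-percentile floor. In K562 it went from 0.0845 to −0.0057 with 1 symbol only. No member passed 1.5-fold with atovaquone under any alternative. The members' median log2 difference between vehicle arrays was at least 1.36, the bound of NLRC5, without the shared HLA probe sets, which leaves 5 members. Lowering the floor to the 20th percentile, dropping it, or leaving out centring put TAP2 under 1.5-fold, so that 6 of 7 members passed. A 60th-percentile floor did the same for NLRC5. It also turned HLA-F/HLA-B and TAP1 into lower bounds of 2.58 and 1.95, since they then lay under it in K562. With atovaquone in K562, 2 other pathway genes were at least 1.5-fold higher, MR1 joining HLA-DMA, under the 20th-percentile floor, without a floor and with 1 symbol only, and the number was 0 under the 60th-percentile floor. That last floor also left 0 pathway genes lower in U266 than in K562 by 1.5-fold or more.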

Other observations

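The genes whose pattern over the 4 arrays lay nearest to that of HLA-C/HLA-B were sought, with values under the floor raised to it, among 13602 symbols at or above the floor on at least 1 array, members left out, by the Euclidean distance of log2 intensities centred per gene. The 5 nearest were CYRIA, AGT, RRAGD, SNTB1 and CABLES1. CYRIA had 3537 and 3462 in U266 with vehicle and atovaquone and 299.7 and 339 in K562. AGT, the angiotensinogen gene, had 3504 and 3719 in U266 and 189 and 197 in K562. All 5 were under the floor on the K562 vehicle array, so their places among the nearest rest on values raised to the floor and no order among them can be read. Their differences between the lines are lower bounds, from at least 11.3-fold to at least 12.2-fold, while HLA-C/HLA-B was measured on all 4 arrays.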
